A study of Mus musculus with 5 samples.

Results

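The genes described here are 10 genes of actin filaments and the smooth muscle contractile apparatus, chosen by name: the actins Acta1, Acta2, Actc1, Actg2 and Actb, and Tagln, Cnn1, Myh11, Smtn and Mylk. Each had 1 probe set among the 23279 genes measured, and all 10 lay above the filter on dim genes, so all were tested among 13967 genes. Expression was read on Affymetrix arrays in untreated hearts of mouse embryos at E10.5, in 2 samples of genotype KO and 3 of genotype Control. The series title names Lrrfip2 and hypoxia as its subject. The labels state neither the allele nor the controls' exact genotype, and do not say if several hearts were pooled for a sample. P-values therefore rest on the spread between these 5 samples. The moderated test draws each gene's spread toward a value shared by all genes tested, so SEs and intervals depend on that value too. Levels are log2 values from RMA, which removes background, sets every array to a common distribution and reduces the probes of a set to 1 value. A difference is KO minus control. Replicate numbers follow the order of the deposited samples within each group and are not given by the labels.

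Actins build the filaments on which myosin pulls, and vertebrates have a separate gene for each muscle type. Actc1 encodes the alpha-actin of the cardiac sarcomere, Acta1 that of skeletal muscle, Acta2 and Actg2 the actins of vascular and enteric smooth muscle, and Actb a cytoplasmic actin of all cells. Cardiomyocytes of the embryonic heart tube carry several smooth muscle proteins for a time, among them the products of Acta2, Tagln and Cnn1, before these become confined to vessel walls. Many of these genes are controlled by serum response factor, SRF, which binds a short DNA motif named the CArG box together with myocardin or the related factors Mrtfa and Mrtfb. Mrtfa and Mrtfb bind actin monomers, which ties transcription to the state of the actin filaments. Lrrfip2 encodes a partner of Flii, a remodelling protein of actin filaments.

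Of the 10 genes, 6 had an entry in the RefSeq promoter table (GRCm38.p6): Acta1, Acta2, Actc1, Cnn1, Smtn and Mylk. The 250 bases before the start of transcription were searched for the CArG box in its strict form, without mismatch, which reads the same on each strand. Acta1 and Actc1 held 1 box each, and the other 4 windows held none. Over all 32851 promoter windows of that length, 1.47% held one. The following windows belong to the sarcomeric actins with a box and to Cnn1, the only one of the 10 genes whose groups did not overlap. They are written 5′ to 3′ on the gene's strand, with the box in capitals. The Acta1 window is at chr8:123894776-123895025 on the minus strand, the Actc1 window at chr2:114052876-114053125 on the minus strand and the Cnn1 window at chr9:22099003-22099252 on the plus strand.
Acta1: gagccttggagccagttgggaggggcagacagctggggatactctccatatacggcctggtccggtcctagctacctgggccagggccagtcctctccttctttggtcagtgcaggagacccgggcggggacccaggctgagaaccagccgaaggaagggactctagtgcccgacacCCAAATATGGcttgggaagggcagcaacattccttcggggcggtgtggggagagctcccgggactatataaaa
Actc1: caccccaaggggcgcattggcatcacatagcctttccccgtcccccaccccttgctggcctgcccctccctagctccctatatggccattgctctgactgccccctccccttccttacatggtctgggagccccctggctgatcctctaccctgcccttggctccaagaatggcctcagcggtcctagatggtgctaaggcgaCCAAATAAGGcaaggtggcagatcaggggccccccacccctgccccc
Cnn1: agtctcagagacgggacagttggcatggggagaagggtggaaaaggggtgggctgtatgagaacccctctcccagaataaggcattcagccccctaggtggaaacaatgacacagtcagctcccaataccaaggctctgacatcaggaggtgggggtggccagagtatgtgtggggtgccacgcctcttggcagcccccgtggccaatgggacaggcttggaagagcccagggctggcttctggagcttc
The box began 73 bases before the start in Acta1 and 47 bases before it in Actc1. Forms with 1 mismatch, such as ccctatatgg in the windows of Acta2 and Actc1, were not counted. A match is a stretch of letters and not evidence of binding. A window without one says nothing of SRF there or at other places in the gene.

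Some arrays stood apart before any comparison of groups. KO replicate 2 held endoderm transcripts, Afp being at 11.42 there, 3.86 in KO replicate 1 and 3.88 to 4.07 in controls. KO replicate 1 had the highest macrophage level, a list mean of 5.98, against 5.34 in KO replicate 2 and 5.32, 5.35 and 5.46 in controls. Within that list Tyrobp was at 7.65 in KO replicate 1, against 5.09 in KO replicate 2 and 4.85 to 5.09 in controls. The list's median shift from the control mean was smaller, 0.27 in KO replicate 1 and 0.13 in control replicate 3. Control replicate 3 had the highest level of primitive red cell genes, a list mean of 10.3, against 8.72 and 8.99 in the KO arrays and 9.44 and 8.71 in the other controls. Markers of the cardiac muscle cell were high on every array: the mean over 14 of them was 11.6 and 11.4 in the KO arrays, and 11.6 in each control array. Lrrfip2 itself was at 6.36 and 6.22 in the KO arrays, against 7.33, 8.07 and 8.08 in controls, and its adjusted p was 0.355.

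None of the 10 genes passed the test between KO and control hearts. In limma, 0 of them and 0 of all 13967 genes had an adjusted p under 0.05; over all genes this count was 9 without KO replicate 1 and 983 without KO replicate 2, with 0 of the 10 among them. An unadjusted p under 0.05 was found for 0 of the 10 genes, but for 1227 or 8.78% of all genes tested, 3.29% with higher and 5.49% with lower levels in KO hearts. The KO and control values did not overlap for 1 of the 10 (Cnn1), against 21.3% of all genes, 8.18% wholly higher and 13.1% wholly lower in KO hearts. Of the 10, 2 had higher and 7 lower mean levels in KO hearts and 1 was equal, where 43.7% of all genes were higher and 54.4% lower. Their median log2 difference was -0.04, against -0.02 over all genes. With 2 arrays against 3 an exact permutation test cannot give a p below 0.1. In RNA from whole hearts, fewer cells of a type and less RNA per cell cannot be told apart.

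**Figure D1:**
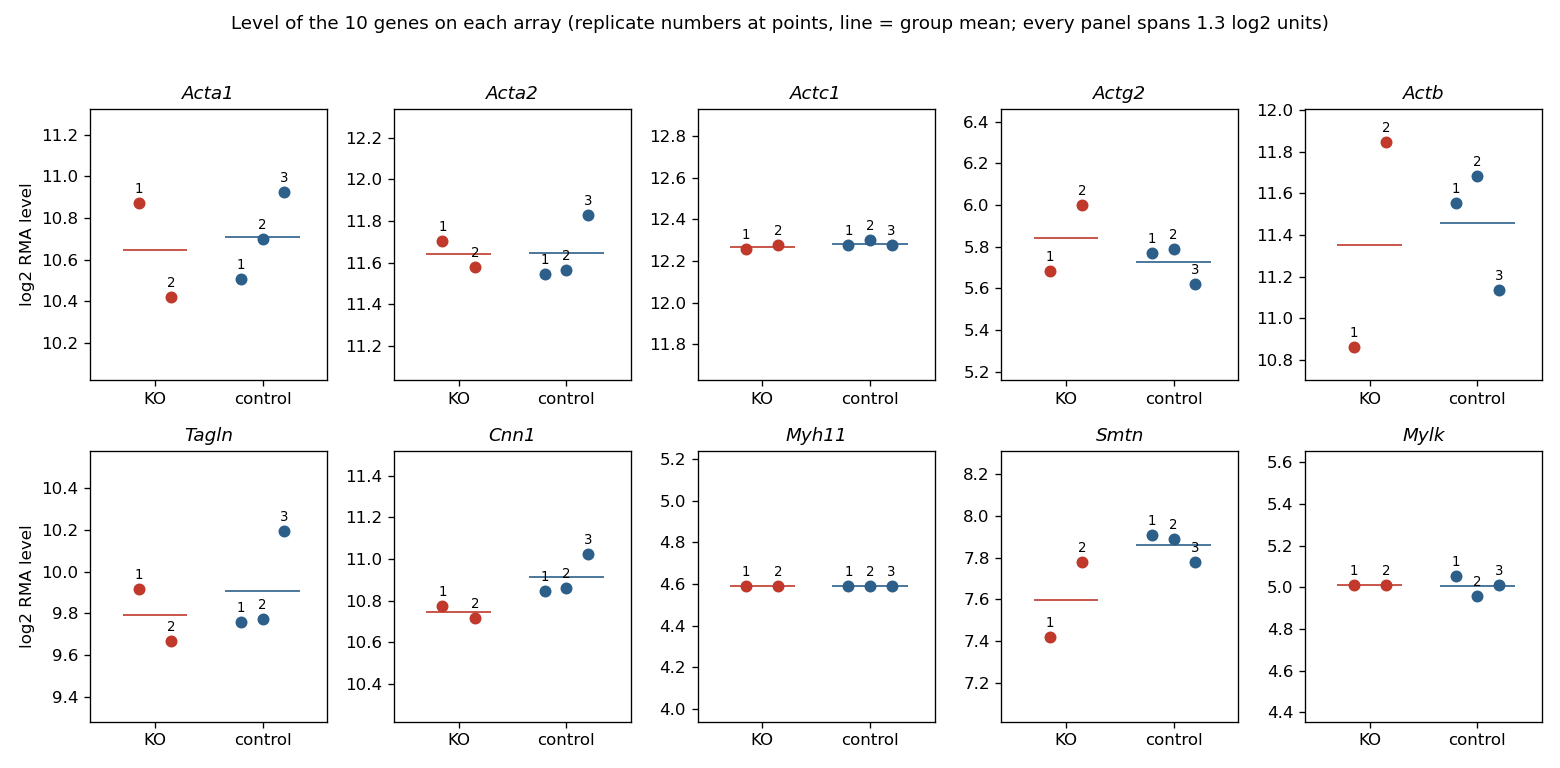
Level of each of the 10 genes (log2 RMA, vertical axis) in KO hearts (red) and control hearts (blue); each point is 1 array with its replicate number, and lines are group means. Every panel spans the same width of the log2 scale, so spreads can be compared between panels but levels of different probe sets cannot; the points of Actb are the farthest apart and those of Myh11 coincide.

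The sarcomeric actin of the heart, Actc1 (Entrez 11464, chromosome 2), was almost constant. Its level was 12.26 and 12.28 in the KO arrays, against 12.28, 12.30 and 12.28 in control arrays. The groups overlapped, and KO replicate 2 had the same deposited value as control replicates 1 and 3. Exact ties between arrays were common in these values, occurring for 7660 of the 13967 tested genes. Actc1 differed by -0.02 ± 0.03 (SE), with a 95% interval of 0.931- to 1.05-fold and an adjusted p of 0.837. Myh11, which had no spread at all, also had an SE of 0.03. The SE and interval of Actc1 thus come mostly from the spread shared over genes. The values of Actc1 spanned 0.0385 over the 5 arrays, and 4.86% of tested genes had a range no wider. The brightest probe sets of each array lay between 12.51 and 12.63, so Actc1 was read near the top of the scale, where a loss of range was not tested. Quantile normalization of the deposited values gave a difference of 0.04, of the opposite sign.

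Skeletal alpha-actin, Acta1 (Entrez 11459, chromosome 8), which is also made in embryonic heart muscle, varied within each group. It was at 10.87 and 10.42 in the KO arrays, against 10.51, 10.70 and 10.93 in control arrays. The KO arrays were 0.452 apart and the controls spanned 0.415, wider than the difference of -0.06 ± 0.20 (SE, adjusted p = 0.899). KO replicate 1 lay above the control mean by 0.16, and KO replicate 2 differed from it by -0.29. The 95% interval of the difference was 0.653- to 1.40-fold.

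Smooth muscle alpha-actin, Acta2 (Entrez 11475, chromosome 19), had the same mean in both groups to within 0.01. Its level was 11.70 and 11.58 in the KO arrays, against 11.55, 11.56 and 11.83 in control arrays. Both KO values lay inside the range of the controls. Acta2 differed by -0.01 ± 0.11 (SE), with an interval of 0.803- to 1.24-fold and an adjusted p of 1. Its sign turned with array weights (0.05), with quantile normalization (0.01), and without control replicate 3 (0.09) or KO replicate 2 (0.06).

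The enteric actin Actg2 (Entrez 11468, chromosome 6) was read much closer to the dim level of 4.44. It was at 5.68 and 5.999 in the KO arrays, against 5.77, 5.79 and 5.62 in control arrays. KO replicate 2, the array with endoderm transcripts, was the highest of the 5 and KO replicate 1 lay within the controls. The difference was 0.11 ± 0.12 (SE, adjusted p = 0.681), and without KO replicate 2 it was -0.04. The part of the tissue behind those transcripts in this value was not tested.

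Cytoplasmic beta-actin, Actb (Entrez 11461, chromosome 5), which forms filaments in all cell types, had the widest spread of the 10 genes. Its level was 10.86 and 11.85 in the KO arrays, against 11.55, 11.68 and 11.14 in control arrays. The lowest and the highest value of the 5 were thus the KO arrays, and 5.91% of tested genes had a range at least as wide as its 0.986. The difference between group means was -0.10 ± 0.37 (SE), with an interval of 0.461- to 1.88-fold and an adjusted p of 0.915. It was 0.39 without KO replicate 1, -0.60 without KO replicate 2 and 0.01 without control replicate 2. Cytoplasmic gamma-actin was not analysed here.

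The arrays had nearly the same order for Actb as for markers of cushion mesenchyme, the connective tissue cells of the forming valves. The mean level of the 8 mesenchyme markers was 6.38 and 7.52 in the KO arrays, against 7.43, 7.34 and 6.72 in controls. KO replicate 1 and control replicate 3 were thus the lowest arrays for Actb and for this list, and KO replicate 2 was the highest for each. All 8 markers were above the dim level on average. Among them, Col1a1 was at 5.62 and 7.90 in the KO arrays, and Pdgfra at 6.63 and 8.09. For 1 of the 8, both KO values lay below every control value, which was not so for Actb. The epicardial list had a mean of 6.76 and 7.22 in the KO arrays, against 7.13, 7.02 and 6.78 in controls. The epicardial and endoderm lists had the same order of arrays as the mesenchyme list. The endoderm mean was 4.68 and 8.03 in the KO arrays, against 4.81, 4.76 and 4.75 in controls. The cardiac muscle list had the reverse order, with a mean of 11.65 and 11.39 in the KO arrays, against 11.56, 11.57 and 11.58 in controls. The part of any of these cells in the Actb values was not tested.

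The genes outside the 10 whose levels followed those of Actb most closely over the 5 arrays were Praf2, Kansl2, Igfbp4, Gli2 and Rab32. Likeness was measured as the root mean square difference of levels centred on each gene's mean, which was 0.038 for Praf2 and 0.0605 for Rab32. Praf2 was at 7.85 and 8.76 in the KO arrays, against 8.498, 8.58 and 8.02 in controls. Igfbp4, an insulin-like growth factor binding protein, was at 7.80 and 8.85 in the KO arrays, against 8.63, 8.61 and 8.15 in controls. None of the 5 had a difference past the threshold, and with 5 arrays such matches describe these libraries only.

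**Figure D2:**
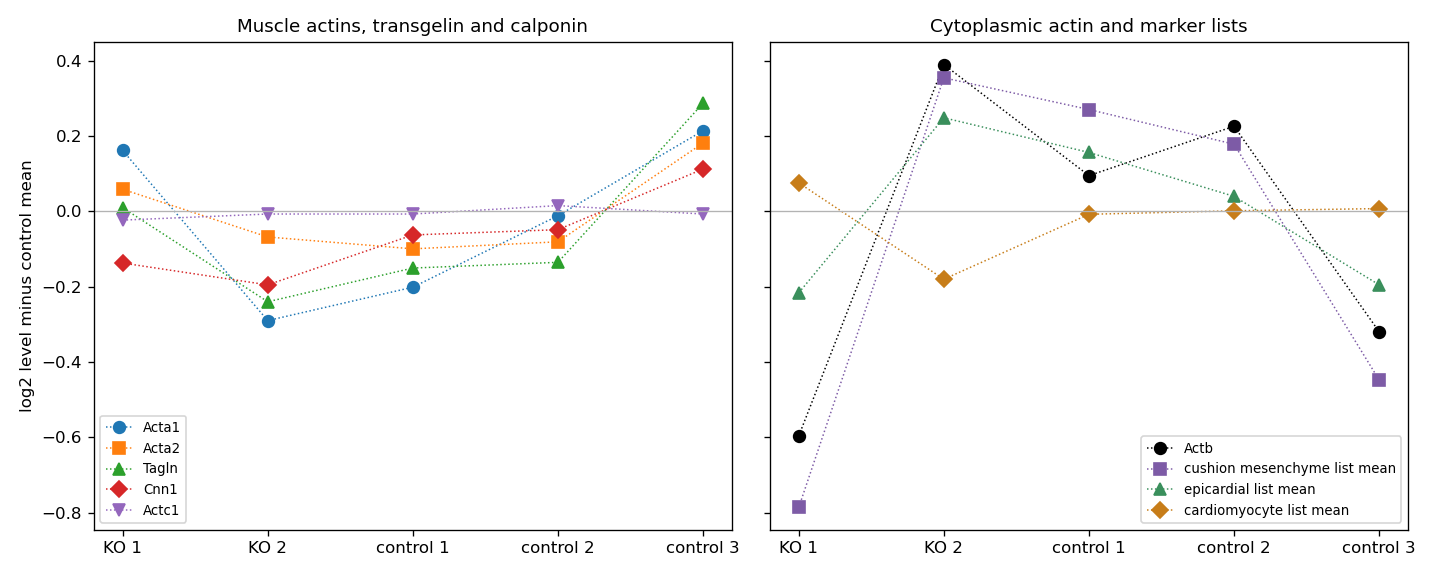
Levels on each array minus the control mean (log2, vertical axis) for Acta1, Acta2, Tagln, Cnn1 and Actc1 (left), and for Actb with the mean level of 3 marker lists (right); the horizontal axis gives the 5 arrays and dotted lines only join points of 1 gene or list. On the left, control replicate 3 is high for Acta1, Acta2, Tagln and Cnn1 while Actc1 stays near 0; on the right, Actb is lowest in KO replicate 1 and highest in KO replicate 2, as is the cushion mesenchyme list.

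Transgelin, Tagln (Entrez 21345, chromosome 9), encodes an actin-binding protein of smooth muscle that is also found in the early myocardium. Its level was 9.92 and 9.67 in the KO arrays, against 9.76, 9.77 and 10.19 in control arrays. The groups overlapped, and the highest value belonged to control replicate 3. The difference was -0.12 ± 0.18 (SE), with an interval of 0.653- to 1.31-fold and an adjusted p of 0.783. Without control replicate 3 it was 0.03 and without KO replicate 2 it was 0.01, so the sign rests on single arrays.

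Calponin 1, Cnn1 (Entrez 12797, chromosome 9), which binds actin and slows the myosin motor, had the clearest separation of the 10. It was at 10.77 and 10.72 in the KO arrays, against 10.85, 10.86 and 11.02 in control arrays. Both KO values lay below every control value. Cnn1 differed by -0.17 ± 0.07 (SE), or 1.12-fold lower in KO hearts, with an unadjusted p of 0.0803 and an adjusted p of 0.57. The interval ran from 0.777- to 1.02-fold. When each array was left out in turn the difference lay between -0.20 and -0.11. Leaving out an array cannot make separate groups overlap, so their staying apart adds nothing. Of the 14 cardiac muscle markers, the groups did not overlap for 5 that were lower and 1 that was higher in KO hearts. Over all genes tested these shares were 13.1% and 8.18%. The median over the list was -0.02. The part of cardiac muscle cells in the Cnn1 value was not tested.

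Levels were also set against Actc1 on the same array. As Actc1 hardly varied and was read near the top of the scale, the value for Cnn1 largely restates that of Cnn1 alone and gives it no further support. The log2 level of Cnn1 minus that of Actc1 was -1.49 and -1.56 in the KO arrays, against -1.43, -1.44 and -1.25 in controls, a difference between group means of -0.15. For Tagln minus Actc1 this difference was -0.10 and for Acta2 minus Actc1 it was 0.01, with overlapping groups in each case. The size of such a within-array value has no meaning between different probe sets, so it is read between the groups only.

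Smoothelin, Smtn (Entrez 29856, chromosome 11), an actin-binding protein of contractile smooth muscle, had the largest mean difference of the 10. Its level was 7.42 and 7.78 in the KO arrays, against 7.91, 7.89 and 7.78 in control arrays. KO replicate 1 was the lowest of the 5, while KO replicate 2 had the same deposited value as control replicate 3. The difference was -0.26 ± 0.13 (SE), 1.20-fold lower, with an unadjusted p of 0.111 and an adjusted p of 0.57. It was -0.44 without KO replicate 2 and -0.08 without KO replicate 1. In such a fit the remaining KO array is assumed to vary like the controls.

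**Figure D3:**
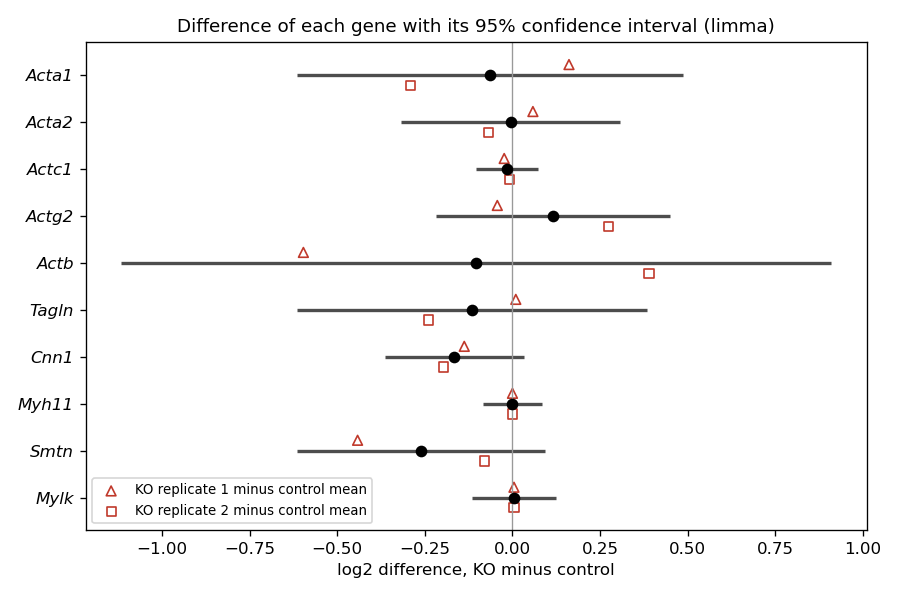
Log2 difference between KO and control (horizontal axis) of the 10 genes with the 95% confidence interval from limma (line); triangles and squares are KO replicates 1 and 2 minus the control mean. Each interval includes 0, and the KO replicates lie on opposite sides of 0 for Acta1, Acta2, Actg2, Actb and Tagln.

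Myh11 and Mylk were read near the dim level and had little spread. Smooth muscle myosin heavy chain, Myh11 (Entrez 17880, chromosome 16), the motor of differentiated smooth muscle, was at 4.59 on every array, KO and control, to the last deposited digit. Such a tie over all 5 arrays occurred for 268 of the tested genes, so this set gives no estimate of its own spread. Myosin light chain kinase, Mylk (Entrez 107589, chromosome 16), which starts smooth muscle contraction by phosphorylating the myosin light chain, was at 5.01 in each KO array. In control arrays it was at 5.05, 4.96 and 5.01, and control replicate 3 had exactly the KO value. Its difference was 0.00 ± 0.04 (SE, adjusted p = 0.982), and its sign turned with the scaling of the arrays.

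The vertebrate actins are nearly identical in their coding sequence, and the probes of these sets were not used here. How far one actin gene's transcripts add to the signal of another's set was therefore not tested.

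Among paralogs of the 10 genes, 13 of 14 listed were measured and 11 tested, of which 5 had higher and 6 lower levels in KO hearts, with a median of 0.00. An unadjusted p under 0.05 was found for 2 of the 11, beside 8.78% of all genes, and 0 passed the adjusted threshold. Tagln3, a transgelin best known from neurons, was at 6.56 and 6.42 in the KO arrays, against 6.995, 6.995 and 7.30 in controls, a difference of -0.61. Mylk2, the light chain kinase of skeletal muscle, was at 4.60 and 4.65 in the KO arrays, against 4.48, 4.43 and 4.44 in controls, a difference of 0.17. The widely expressed calponin Cnn2 differed by -0.08.

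Other genes of the smooth muscle contractile apparatus were mixed in direction. Of 24 measured, 23 were tested, 12 had higher and 11 lower levels in KO hearts, and the median was 0.01. By unadjusted p under 0.05, 1 was higher and 3 lower, beside 3.29% and 5.49% of all genes, and 0 passed the adjusted threshold. The lower ones were the muscle intermediate filament gene Des (-0.45), the Z-disc gene Pdlim3 (-0.74) and the regulatory light chain Myl9 (-0.12). Myl9 was at 11.54 and 11.56 in the KO arrays, against 11.70, 11.68 and 11.63 in controls, so the groups did not overlap. The higher one, named after its values were seen, was Cald1, caldesmon, at 0.42, with 8.92 and 9.37 in the KO arrays against 8.69 to 8.77 in controls.

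For SRF, its cofactors and partners, 16 of 16 were tested, with 5 at higher and 11 at lower levels in KO hearts and a median of -0.12, which was -0.04 without KO replicate 1 and -0.06 without KO replicate 2. At an unadjusted p under 0.05 there were 0. The groups did not overlap for 4 of the 16, beside 21.3% of all genes, with 3 lower and 1 higher in KO hearts. Myocd, which encodes the coactivator myocardin, was at 9.57 and 9.30 in the KO arrays, against 9.62, 9.63 and 9.75 in controls, a difference of -0.24 (adjusted p = 0.57). The 3 lower ones were Myocd, the cardiac homeobox gene Nkx2-5 (-0.37) and Elk4 (-0.21), a ternary complex factor that also binds SRF. The higher one, named after its values were seen, was the TEA domain factor gene Tead1 (0.06). Srf itself, named after its values were seen, was at 8.26 and 8.51 in the KO arrays, against 8.40, 8.51 and 8.82 in controls. Those groups overlapped.

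Genes of actin filament turnover numbered 36 tested, of which 10 had higher and 26 lower levels in KO hearts, against 54.4% lower among all genes, and the median was -0.03. Without KO replicate 2 the median was 0.02. At an unadjusted p under 0.05, 1 was higher and 3 lower, beside 3.29% and 5.49% of all genes, and 0 passed the adjusted threshold. Arpc5, a subunit of the complex that branches actin filaments, was at 8.16 and 8.07 in the KO arrays, against 8.39, 8.37 and 8.43 in controls, a difference of -0.29. Dstn, which severs filaments, differed by -0.19, and Tmsb10, which holds actin monomers, by 0.19. Flii was chosen as the partner of the Lrrfip2 product. Its level was 7.92 and 8.118 in the KO arrays, against 8.19, 8.124 and 8.27 in controls, with an adjusted p of 0.57 in limma. Both KO values thus lay below every control value, as for 13.1% of all genes.

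**Figure D4:**
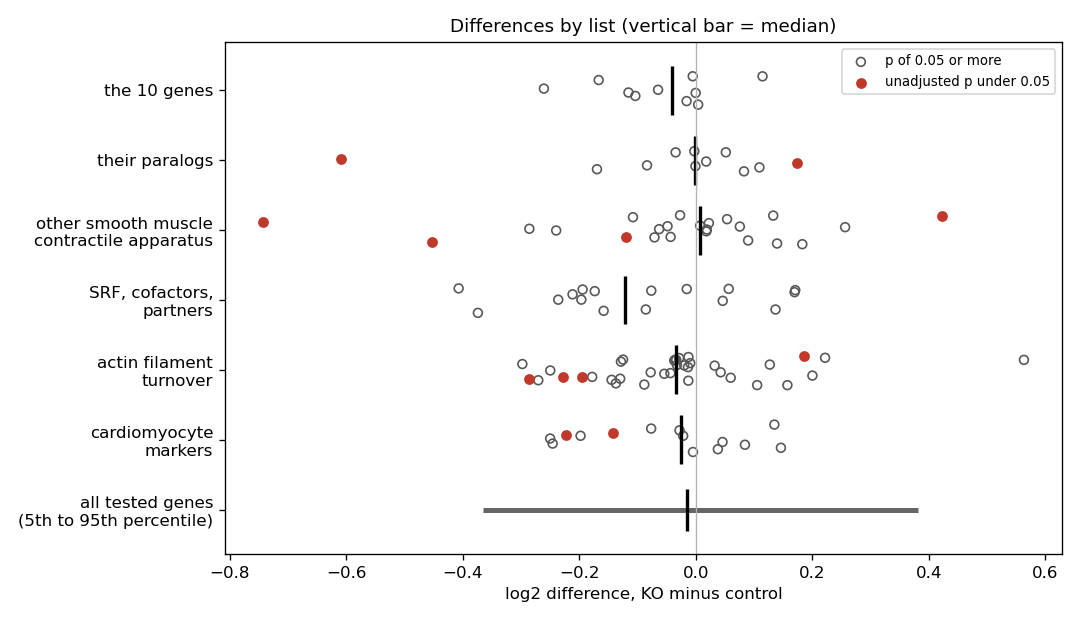
Log2 difference between KO and control (horizontal axis) of each tested gene in the 10 genes and in 5 further lists (rows), with filled points at an unadjusted p under 0.05 and a bar at each median; the lowest row is the span of all tested genes. All 10 genes have open points, and the medians of the lists lie between -0.12 and 0.01.

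Markers of the cell types that could hold these transcripts were set beside them. Of 14 cardiac muscle markers 5 had higher and 9 lower levels, with a median of -0.02, which was -0.18 without KO replicate 1 and 0.07 without KO replicate 2. With an unadjusted p under 0.05, 2 were lower, beside 5.49% of all genes. They were the calcium-binding troponin Tnnc1 (-0.14) and the alpha myosin heavy chain Myh6 (-0.22). Non-contractile markers of mural cells, the cells around vessels, had 2 of 5 higher with a median of -0.27, which was 0.17 without control replicate 1, -0.53 without control replicate 3 and -0.04 without KO replicate 1. Their defining receptor Pdgfrb was at 6.27 and 6.86 in the KO arrays, against 6.45, 6.27 and 5.81 in controls, and Cspg4, at -0.49, had an unadjusted p of 0.00114. Markers of the skeletal muscle lineage had 2 of 5 higher and a median of -0.01. Among them Tnni2, the fast skeletal troponin I, was at 9.24 and 8.50 in the KO arrays, against 8.32, 8.42 and 8.02 in controls, without overlap (adjusted p = 0.57). For the other lists, endothelial and endocardial markers had 5 of 9 higher (median 0.20, but -0.0039 without KO replicate 1 and 0.13 without control replicate 3), epicardial markers 3 of 6 (-0.01), cushion mesenchyme 3 of 8 (-0.21), and the second heart field 2 of 3 (0.17). Without KO replicate 1 the epicardial median was 0.31 and that of the mesenchyme 0.19. Without KO replicate 2 they were -0.11 and -0.86. The mesenchyme median was -0.42 without control replicate 3. That of the second heart field was 0.42 without control replicate 1 and -0.13 without control replicate 3. Endoderm markers had 11 of 11 higher (1.78, but -0.06 without KO replicate 2), primitive red cell genes 0 of 6 (-0.46, but -0.07 without control replicate 3, -0.89 without control replicate 2 and -0.30 without KO replicate 1) and macrophage genes 5 of 7 (0.10, with a range of 0.02 to 0.27 when each array was left out). No marker in these lists passed the adjusted threshold.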

How the data were processed

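The values are log2 levels of 5 samples that the authors deposited as 1 table, made with Affymetrix Expression Console and RMA, per the submitters' processing notes, which give no version, setting or genome build. RMA draws all arrays to 1 distribution, which would hide a change shared by most genes. Scanner files were not used, and the background of single probes was not assessed.

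Symbols came from the platform annotation, updated through Entrez numbers in a RefSeq table of GRCm38.p6 (23156 of 23281 named sets matched). The brightest set of a gene was kept, and genes with a mean over all arrays under the 40th percentile (4.44) were left out as dim. KO was compared with control by a two-sided moderated test without covariates (limma version 3.58.1 under R version 4.3.3), with Benjamini-Hochberg adjustment over 13967 genes and a threshold of 0.05; it was tested on simulated data. The 10 genes and all lists (4 of pathways, 10 of cell type markers) were chosen with earlier results of these data known, and lists were described without a set test. Named beside the 10 are Lrrfip2, up to 3 genes of a list with the smallest p, and the 5 genes most like the member with the widest range; others were chosen for their role or after their values were seen. Alternatives concerned the dim filter, variance prior, array weights, scaling, averaging of probe sets and leaving out each array.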

Additional observations from a re-analysis of the deposited data

How the results depend on the processing

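The count of genes past the adjusted threshold was 0 under each setting with all 5 arrays; leaving out 1 array gave 0 to 983, the highest without KO replicate 2. At an unadjusted p under 0.05 the count was 783 with array weights and 772 to 3818 with an array left out: 2374 without KO replicate 1, 3818 without KO replicate 2, 772 without control replicate 1 and 790 without control replicate 2. Of the 10 genes, 0 were that low under every setting except without KO replicate 2, where Smtn was. That fit had 1 KO array left, and the count over all genes was also highest there. The groups did not overlap for 2 of the 10 genes after quantile normalization (Cnn1 and Myh11). After subtracting array medians they did not overlap for 3 (Actc1, Cnn1 and Smtn). In the deposited values Myh11 was equal on every array, and Actc1 and Smtn each had a KO value equal to a control value. Rescaling the arrays breaks such ties, so these added separations carry no weight. With an array left out the count was 1 to 5, the highest without KO replicate 1. Cnn1 was always among these, as leaving out an array cannot make separate groups overlap. With 1 KO array left, groups are separate whenever that array is the highest or the lowest, so separation is more frequent there by construction. The share over all genes was not computed at these settings, and no conclusion is drawn from the count. The median difference of the 10 genes was -0.0087 with array weights, -0.0515 after subtracting array medians, and -0.0557 to 0.0032 with an array left out.

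Signs turned for 7 of the 10 genes. With array weights Acta1 was at 0.0105 and Acta2 at 0.0549; after quantile normalization Acta2 was at 0.00924, Actc1 at 0.0431 and Mylk at -0.0106; after subtracting array medians Mylk was at -0.0072. With an array left out the ranges were -0.29 to 0.16 for Acta1, -0.0684 to 0.0855 for Acta2, -0.60 to 0.39 for Actb, -0.0433 to 0.273 for Actg2, -0.0206 to 0.027 for Mylk and -0.24 to 0.0278 for Tagln. The cause was not tested. The alternatives for the within-array differences and for the list medians were chosen after seeing the data. Changes of the dim filter, variance prior or array weights, subtracting array medians and averaging probe sets cannot alter the within-array differences. Under quantile normalization and with an array left out, these differences moved by less than the control SD. That SD was 0.163 for Acta2 and 0.255 for Tagln, wider than these differences themselves, and their signs turned. With an array left out the ranges were -0.061 to 0.105 for Acta2, -0.233 to 0.0471 for Tagln and -0.188 to -0.0913 for Cnn1. No paired analysis was possible because the labels do not link any KO sample to a control sample.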
